A study of Homo sapiens with 44 samples.

Results

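The regions described here are the ATAC-seq peaks that the deposited table assigns to genes of MHC class I antigen presentation. They were taken by gene name, as every row whose gene field was HLA-B, HLA-C, HLA-E, HLA-F, B2M, TAP1, PSMB8, PSMB9 or NLRC5, which gave 152 of the 407383 peaks in the table. HLA-E had 49 of them, NLRC5 29, HLA-C 21, HLA-F 17, TAP1 17, B2M 13, HLA-B 4 and PSMB8 2, while no row was named for PSMB9. The genes themselves were picked with earlier results of these data known. The table was made from Ccd18-Co, a fibroblast line from human colon, by ATAC-seq, which reads where a transposase can insert adapters, that is, where DNA is accessible. All cells were serum-starved and then kept in serum-free medium, either unstimulated or with 1 cytokine for 24 h, namely IL-1β at 0.1 ng/ml or TNF, TGF-β1, oncostatin M (OSM), IL-6, IL-13, IL-17A, IL-22, IFNα or IFNγ at 10 ng/ml. The IL-1β dose is that of the labels and the methods, and another passage of the study gives a lower one. Each of the 11 groups held 4 libraries, and the comparison with the unstimulated group asks which of these cytokines opens or closes chromatin at the class I genes. As this is 1 cell line, the replicates share a donor, and p-values measure the spread between libraries whose separate cultures the labels do not describe.

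MHC class I molecules carry peptides from inside the cell to its surface, where CD8 T cells and natural killer cells read them. HLA-B and HLA-C encode classical heavy chains, HLA-E and HLA-F encode less variable heavy chains, and B2M encodes the light chain that all of them share. PSMB8 and PSMB9 encode catalytic subunits of the immunoproteasome, which cuts proteins into peptides, and TAP1 encodes a subunit of the pump that moves those peptides into the endoplasmic reticulum. NLRC5 is a transactivator of class I genes. Interferons are known inducers of this pathway, through sequence elements such as the interferon-stimulated response element (ISRE), and TNF acts on some class I promoters through NF-κB sites.

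Stretches just upstream of some of the start sites are shown because they differ in exact matches to patterns of these elements. Each is read 5′ to 3′ on the strand of the gene from hg38, and capitals mark matches on either strand to an ISRE pattern (a pair of GAAA repeats with 2 bases between them) or to an NF-κB pattern (GGG, 2 bases of any kind, TT, 1 base of any kind, CC). The HLA-B, HLA-C, HLA-E and HLA-F stretches are 100 bases long and begin 200 bases upstream of the GENCODE v44 start sites, at chr6:31357280-31357379 (minus strand), chr6:31272193-31272292 (minus strand), chr6:30489309-30489408 (plus strand) and chr6:29723234-29723333 (plus strand).
HLA-B: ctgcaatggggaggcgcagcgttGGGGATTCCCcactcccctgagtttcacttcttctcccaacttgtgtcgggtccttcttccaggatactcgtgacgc
HLA-C: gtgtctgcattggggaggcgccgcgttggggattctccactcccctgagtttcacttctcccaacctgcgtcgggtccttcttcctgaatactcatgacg
HLA-E: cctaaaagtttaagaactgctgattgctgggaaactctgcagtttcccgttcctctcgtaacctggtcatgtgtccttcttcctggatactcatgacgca
HLA-F: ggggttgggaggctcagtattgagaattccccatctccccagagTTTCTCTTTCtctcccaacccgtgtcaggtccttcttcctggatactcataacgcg
HLA-B held 1 NF-κB match and HLA-F 1 ISRE match, and neither pattern was found in these windows of HLA-C and HLA-E. Only exact matches were marked, so a stretch without a mark is not shown to lack the element. The B2M stretch is 60 bases long and begins 160 bases upstream (chr15:44711357-44711416, plus strand), and the TAP1 stretch is 100 bases long and begins 150 bases upstream (chr6:32853755-32853854, minus strand).
B2M: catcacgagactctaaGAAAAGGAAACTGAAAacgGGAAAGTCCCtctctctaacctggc
TAP1: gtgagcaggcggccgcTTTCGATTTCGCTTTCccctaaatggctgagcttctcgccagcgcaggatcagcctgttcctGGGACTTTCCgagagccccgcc
Both held 2 overlapping ISRE matches and 1 NF-κB match. Their windows differ in length or position from those of the HLA genes, so match counts were not compared over a common window. The TAP1 stretch lies between the start sites of TAP1 and PSMB9, which point away from each other and are 488 bases apart. Within their 500 bases, 6.63% of the 29105 tested peaks of the promoter class held an ISRE match and 10% an NF-κB match, and over all tested peaks these shares were 9.11% and 8.97%. Of the 152 class I peaks, which are of all classes, 11 held the former and 15 the latter. Another pattern, the GAS element of STAT factors (TTCNNNGAA), was found in 28 of them, and in 12.9% of promoter-class and 17.2% of all tested peaks.

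Values are the coverage of each 500-base peak, summed over its bases and expressed per megabase (Mb) of the library's coverage in all peaks, after a composition factor. All peaks have the same length, so levels do not differ by width. Differences between loci in GC content or read placement were not corrected, so rankings between peaks describe coverage. Library totals ran from 148.8 Mb in IL-6 replicate 4, where 27.1% of all peaks had no coverage, to 823.1 Mb in IFNα replicate 2. The fibroblast marker promoters COL1A1 (group means 19.9 to 30.4 per Mb) and PDGFRB (11.9 to 18.9 per Mb) were accessible, and those of the endothelial markers VWF (0.26 to 0.78 per Mb) and PECAM1 (0.14 to 0.63 per Mb) were near the floor of 3 reads. The promoter-class peak of LUM, another fibroblast marker, was also near that floor (0.30 to 0.91 per Mb), with 4.98 to 11.3 per Mb in the row next to its start. Against the label, rows named for PTPRC (leukocytes) and KRT20 (epithelium) reached group means of 15.8 and 14.7 per Mb, neither of them of the promoter class. Those of CD79A, CDH5, CD3E and LYZ stayed at or below 2.68 per Mb. In bulk chromatin, more cells with an open site and more opening per cell cannot be told apart.

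All 152 class I peaks passed the filter on low coverage. With IFNγ, 33 of them were called (adjusted p under 0.05, limma with Benjamini-Hochberg adjustment over all 407176 tested peaks) and all 33 were raised, which is 21.7% of the members against 1.75% of all peaks. As the genes were picked with earlier results known, this difference in shares is a description. With IFNα, 16 were called, 15 raised and 1 lowered (10.5%, against 0.847% of all peaks). The median log2 change of the 152 peaks was 0.30 with IFNγ, where the median of all tested peaks was -0.01, and 0.16 with IFNα, where it was 0.01. The remaining cytokines called 8 members or fewer each, and 112 of the 152 peaks were called for none of the 10 cytokines. A peak that was not called is not shown to be unchanged, since with 4 libraries a group smaller changes are often missed. Without IFNα replicate 3, or without unstimulated replicate 1, the IFNα count was 10, and the IFNγ count stayed between 28 and 33 when any 1 library was left out.

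Each gene was first described by its lead peak, the promoter-class row with the highest mean, or for HLA-F, which had no promoter-class row, its highest row, classed as exonic, whose centre lies at -86 bases from the start site. Of the 8 lead peaks, 6 were raised with IFNγ (HLA-B, HLA-E, HLA-F, TAP1, PSMB8 and NLRC5), 2 with IFNα (HLA-B and HLA-F) and 1 with TNF (HLA-B). Among all promoter-class peaks, 1.96% were called with IFNγ, 1.03% with IFNα and 3.01% with TNF. Lead peaks of the 2 remaining genes, HLA-C and B2M, were called for none of the 10 cytokines.

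**Figure D1:**
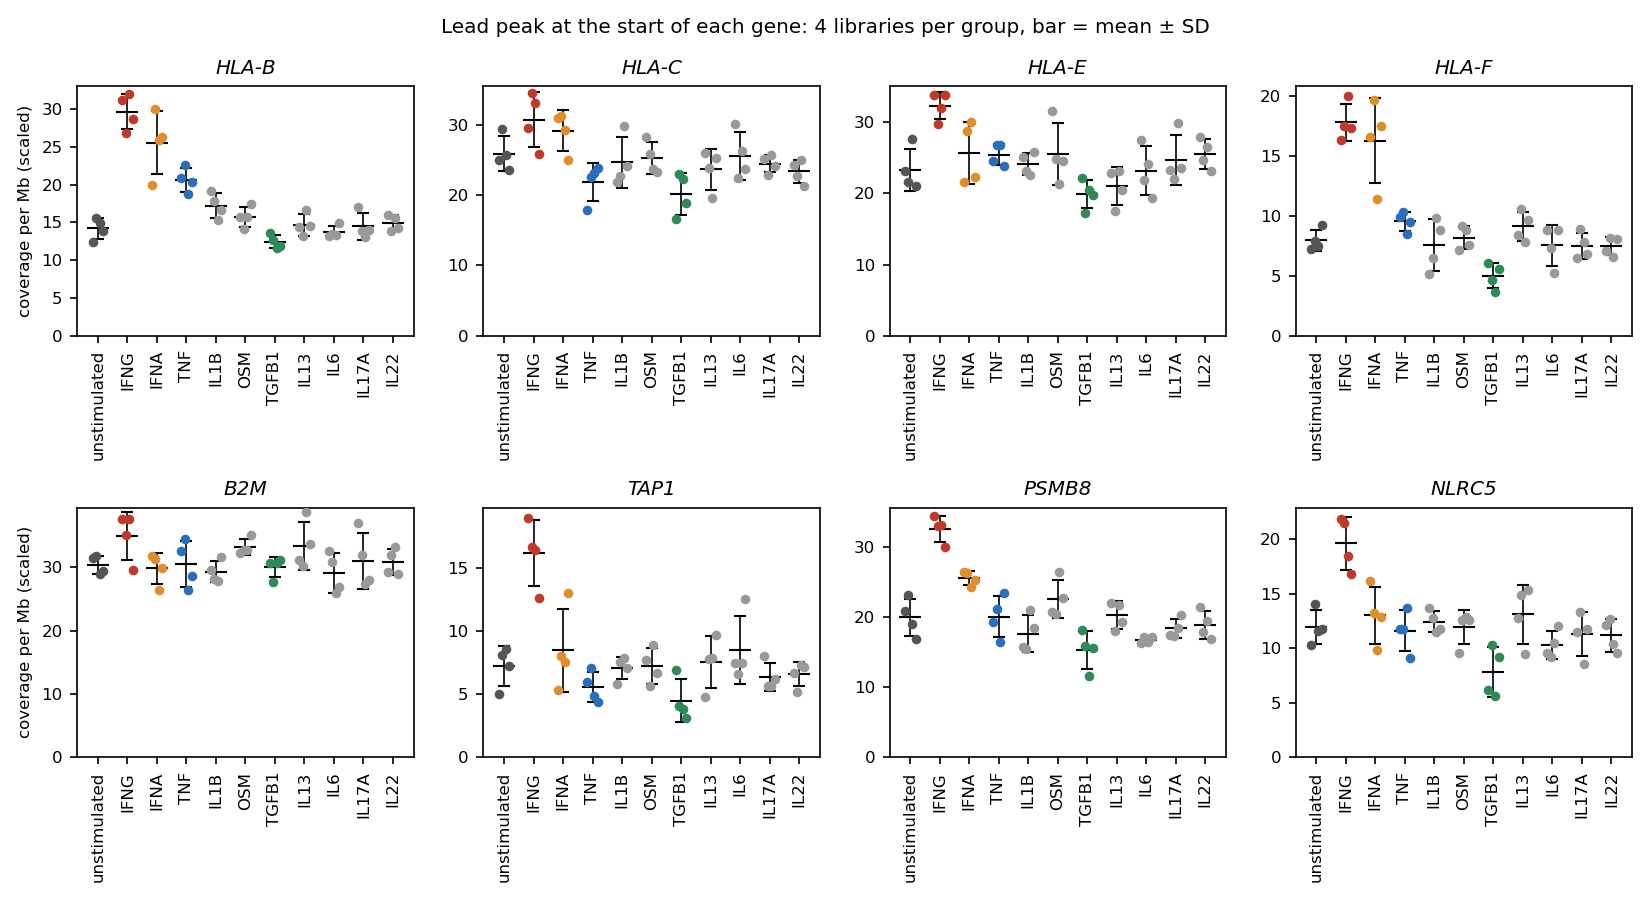
Coverage per Mb of the lead peak of each of 8 genes (y axis) in the 4 libraries of every group (x axis, named by gene symbol, points), with the mean and SD as black bars. IFNG libraries lie above all unstimulated libraries for HLA-B, HLA-E, HLA-F, TAP1, PSMB8 and NLRC5. B2M, not called for any cytokine, has group means from 29.1 (IL6) to 35.0 per Mb (IFNG).

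Among the heavy chains, the HLA-B promoter (chr6:31357050-31357550) rose with 3 cytokines. It held 12.4, 15.6, 15.0 and 13.9 per Mb in the unstimulated libraries, 31.1, 26.9, 32.0 and 28.6 with IFNγ, 19.9, 30.0, 25.9 and 26.4 with IFNα, and 20.8, 22.6, 18.7 and 20.3 with TNF. None of the 12 treated libraries overlapped with the unstimulated ones, and the IFNγ libraries also lay above all TNF libraries. The log2 changes were 1.04 ± 0.14 with IFNγ (SE, adjusted p = 1.06e-09, limma), 0.81 ± 0.14 with IFNα (adjusted p = 2.11e-05) and 0.52 ± 0.14 with TNF (adjusted p = 0.0074). The HLA-B stretch printed above holds 1 NF-κB match. Those of B2M and TAP1 hold 1 each as well, and the peaks that cover them were not called with TNF. TNF was lower than IFNγ by a log2 difference of -0.51 (adjusted p = 0.00641), while IFNα and IFNγ overlapped and their difference was not called. Without unstimulated replicate 1 the TNF change was no longer called (adjusted p = 0.0547). Group means for the 7 cytokines not called at this promoter ran from 12.4 (TGF-β1) to 17.2 per Mb (IL-1β).

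HLA-F had the lowest unstimulated level of the heavy chain start sites and rose with both interferons. Its lead peak (chr6:29723098-29723598) held 7.26, 7.92, 7.45 and 9.21 per Mb without stimulation, 16.3, 17.5, 20.0 and 17.3 with IFNγ and 16.5, 19.7, 11.4 and 17.5 with IFNα. Every library of both interferon groups was above every unstimulated library. The log2 change was 1.11 ± 0.19 with IFNγ (SE, adjusted p = 3.88e-06) and 0.97 ± 0.19 with IFNα (adjusted p = 0.00043), and these calls held under every alternative tried. This peak covers the ISRE match in the HLA-F stretch.

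HLA-E and HLA-C started from higher levels. The HLA-E promoter (chr6:30489218-30489718) went from 23.3 ± 2.98 per Mb (SD, n = 4) to 32.4 ± 1.91 with IFNγ, a log2 change of 0.47 ± 0.12 (SE, adjusted p = 0.0105, limma). With IFNα it held 25.7 ± 4.35 per Mb, and its change of 0.13 was not called. The IFNγ call was lost without IFNγ replicate 4, unstimulated replicate 2 or unstimulated replicate 4, with a highest adjusted p of 0.0716. The HLA-C promoter (chr6:31271900-31272400) held 24.9, 29.4, 25.7 and 23.6 per Mb without stimulation and 29.6, 34.5, 33.0 and 25.8 with IFNγ. These groups overlapped, and the log2 change of 0.24 (approximate 95% interval 0.01 to 0.47, adjusted p = 0.485) was not called. TNF held 21.9 ± 2.71 per Mb at this promoter, which was lower than IFNγ (log2 difference -0.48, adjusted p = 0.00214).

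The light chain promoter had the highest coverage of the 8 lead peaks in unstimulated cells. B2M (chr15:44711233-44711733) held 31.5, 31.8, 29.0 and 29.3 per Mb without stimulation, 37.6, 35.2, 37.7 and 29.6 with IFNγ and 31.8, 31.3, 26.3 and 29.9 with IFNα. IFNγ replicate 4 lay among the unstimulated libraries. The log2 change with IFNγ was 0.20 (approximate 95% interval -0.01 to 0.40, adjusted p = 0.557, limma), an interval that leaves room for a rise of up to 1.32-fold. This peak covers the B2M stretch, which holds 2 ISRE matches and 1 NF-κB match. Whether these matches bear on its accessibility was not tested.

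TAP1, PSMB8 and PSMB9 lie side by side in the class II region of chromosome 6, so a peak between them cannot be given to 1 gene. The lead peak named TAP1 (chr6:32854315-32854815) has its centre at -861 bases from the TAP1 start site and 373 bases inside PSMB9. It held 5.02, 8.10, 8.59 and 7.21 per Mb without stimulation, 19.0, 16.7, 16.4 and 12.7 with IFNγ and 5.29, 8.01, 7.53 and 13.0 with IFNα. The IFNγ libraries were above the unstimulated ones without overlap, whereas 1 IFNα library reached the IFNγ range and the other 3 did not. The log2 change was 1.12 ± 0.21 with IFNγ (SE, adjusted p = 5.08e-05) and 0.17 ± 0.21 with IFNα (adjusted p = 0.881), and IFNα was lower than IFNγ by a log2 difference of -0.95 (adjusted p = 0.00255, and 0.0757 without IFNα replicate 1). The peak over the TAP1 start itself (chr6:32853526-32854026, classed as exonic) holds the TAP1 stretch printed above. It had more coverage and a smaller log2 change, from 26.9 ± 1.97 to 39.5 ± 5.67 per Mb with IFNγ (log2 change 0.54, adjusted p = 0.000293, limma).

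The PSMB8 lead peak (chr6:32844469-32844969, centred at -672 bases from its start) held 20.8, 23.1, 19.1 and 16.8 per Mb without stimulation and 34.3, 33.0, 33.1 and 30.0 with IFNγ. The groups were apart, with a log2 change of 0.70 ± 0.13 (SE, adjusted p = 3.41e-05, limma). With IFNα all 4 libraries (24.3 to 26.4 per Mb) were above the unstimulated ones, but the change of 0.36 was not called (adjusted p = 0.224). The peak over the PSMB8 start site carries the name of the antisense gene PSMB8-AS1 in the table (chr6:32843838-32844338), and its log2 change with IFNγ was 1.45 ± 0.19 (adjusted p = 5.9e-10).

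The NLRC5 promoter (chr16:56989269-56989769) held 10.3, 14.0, 11.6 and 11.8 per Mb without stimulation, 21.9, 21.4, 18.5 and 16.8 with IFNγ and 16.1, 13.2, 9.81 and 12.8 with IFNα. Only the IFNγ libraries stood clear of the unstimulated ones. The log2 change with IFNγ was 0.70 ± 0.17 (SE, adjusted p = 0.00476, limma), and with IFNα 0.11 ± 0.17 (adjusted p = 0.913). The difference between both interferons was -0.59 (adjusted p = 0.0463), a call that was lost without IFNα replicate 2, 3 or 4 or IFNγ replicate 1, 2 or 3 and with GC correction (highest adjusted p = 0.29). A second NLRC5 peak, centred at -1016 bases from the start (chr16:56988291-56988791), rose with both, from 2.77 ± 0.86 per Mb to 7.49 ± 0.64 with IFNγ and with a log2 change of 1.06 (adjusted p = 0.0157) for IFNα. The IFNα call was lost without IFNα replicate 1 or 2 or unstimulated replicate 1 or 3 (highest adjusted p = 0.122).

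**Figure D2:**
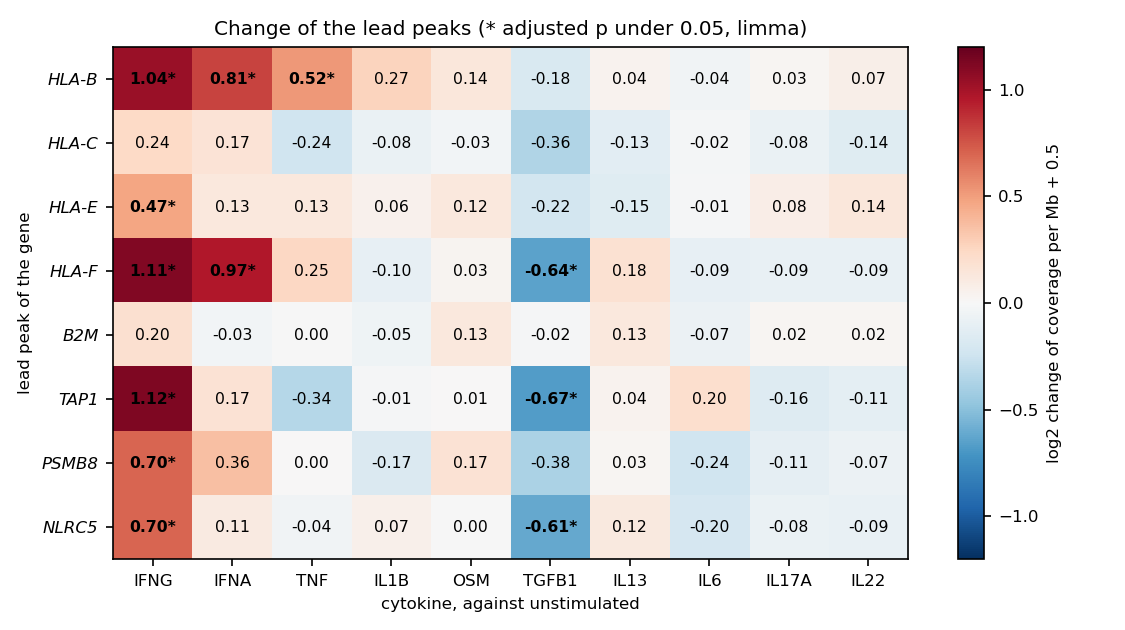
Log2 change of the lead peak of each of 8 genes (rows) for each of 10 cytokines against unstimulated (columns), as coloured and printed values, with an asterisk where limma's adjusted p was under 0.05. The IFNG column has 6 called rises, from 0.47 to 1.12, and the TGFB1 column has 3 called decreases, from -0.67 to -0.61.

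Larger log2 changes with interferon lay away from the start sites, in gene bodies and past the gene ends, but not at every gene. For HLA-B and HLA-F, the only peak called with either interferon was the lead peak. By position, a grouping chosen after the values were seen, IFNγ raised 7 of 18 class I peaks within 1 kb of a start site, 12 of 38 in gene bodies, 8 of 23 within 5 kb past the gene end and 6 of the other 73. Among all tested peaks, at any position, IFNγ raised 1.48%. The medians of their log2 changes were 0.42, 0.53, 0.76 and 0.15 in that order. The peaks with these larger changes had little coverage in unstimulated cells. For the lowest of them a fold against the unstimulated mean is uncertain, so that log2 changes, which understate low peaks, are given with the levels. Start-site peaks began higher, such as the HLA-E promoter (23.3 to 32.4 per Mb with IFNγ). A larger log2 change is therefore not always a larger gain in coverage.

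HLA-E had the strongest such block. Just past its end, the peak at chr6:30494863-30495363, centred 5604 bases from the start, held 0.788, 0.377, 0.799 and 0.0397 per Mb without stimulation, 10.9, 8.69, 10.0 and 8.51 with IFNγ and 2.27, 2.76, 2.53 and 3.12 with IFNα. The groups formed 3 separate levels, with log2 changes of 3.40 ± 0.37 for IFNγ (SE, adjusted p = 8.85e-14, limma) and 1.74 ± 0.37 for IFNα (adjusted p = 0.00231). TNF libraries stayed at 0.337 to 0.53 per Mb. Its neighbour at chr6:30494295-30494795 rose from 0.59 ± 0.22 to 10.8 ± 0.97 per Mb with IFNγ and was lower with IFNα than with IFNγ (log2 difference -1.87, adjusted p = 0.000501), a call that held under every alternative tried. In all, 12 of the 49 HLA-E peaks rose with IFNγ, of which 9 had their centres between 1586 and 7233 bases past the start site.

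At B2M the promoter was not called, but 6 of its 13 peaks were raised with IFNγ, all of them between 2715 and 8262 bases past the start. An intronic peak (chr15:44714858-44715358) held 0.536, 0.746, 0.00607 and 0.424 per Mb without stimulation and 4.58, 4.14, 4.27 and 3.47 with IFNγ, a log2 change of 2.38 ± 0.39 (SE, adjusted p = 1.66e-06, limma). With IFNα its libraries were spread from 0.757 to 3.47 per Mb, and the change of 1.36 was not called (adjusted p = 0.0604). The peak past the gene end (chr15:44719529-44720029) was raised in both interferon groups, with 1.31, 0.903, 2.30 and 2.10 per Mb unstimulated, 11.1, 9.49, 13.1 and 8.07 with IFNγ and 9.68, 8.87, 8.84 and 7.95 with IFNα. Its log2 change was 2.38 ± 0.30 with IFNγ (adjusted p = 5.14e-11) and 2.17 ± 0.30 with IFNα (adjusted p = 1.85e-08), and the groups overlapped each other. The TNF libraries here (1.38 to 2.92 per Mb) overlapped with the unstimulated ones. This peak holds 2 overlapping NF-κB matches at its left edge (chr15:44719530-44719605, plus strand), shown because TNF acts on some class I promoters through NF-κB sites. Whether these matches bear on its accessibility was not tested.
B2M peak: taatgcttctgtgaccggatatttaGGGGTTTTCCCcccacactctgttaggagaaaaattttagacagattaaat

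Upstream of TAP1, within PSMB9, the peak at chr6:32855704-32856204 held 0, 0.90, 1.65 and 0.747 per Mb without stimulation, 4.66, 5.53, 6.75 and 7.24 with IFNγ and 1.30, 1.32, 1.95 and 1.81 with IFNα. Only IFNγ moved it clear of the unstimulated range, with a log2 change of 2.47 ± 0.40 (SE, adjusted p = 8.97e-07, limma). The other peak named PSMB8 (chr6:32845519-32846019), whose centre also lies in a coding exon of TAP1, held 0.48 ± 0.26 per Mb without stimulation, 5.53 ± 0.56 with IFNγ and 1.10 to 2.12 in the IFNα libraries. Its log2 change with IFNγ was 2.66 ± 0.40 (adjusted p = 7.75e-08), and IFNα was lower than IFNγ by -1.51 (adjusted p = 0.0209). That difference was not called without IFNα replicate 3 or 4 or IFNγ replicate 1, 3 or 4 (highest adjusted p = 0.107). An intronic TAP1 peak (chr6:32851829-32852329) was under the floor of 3 reads in all unstimulated libraries and was at least 2.11-fold higher with IFNγ and at least 1.90-fold higher with IFNα, against the mean floor of the unstimulated libraries. Its IFNα call was lost without IFNα replicate 3 or 4 or unstimulated replicate 1, 3 or 4 (highest adjusted p = 0.104), and its IFNγ call without IFNγ replicate 2 (adjusted p = 0.0823).

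HLA-C had 3 peaks raised with each interferon, all outside the gene, of which 1 rests on a single unstimulated library for IFNγ (described last). Past its end, the peak at chr6:31266709-31267209 held 1.18, 0.984, 0.452 and 1.31 per Mb without stimulation, 2.36, 5.68, 4.42 and 5.99 with IFNγ and 3.88, 5.55, 2.86 and 4.82 with IFNα. Both interferon groups were above the unstimulated one and overlapped each other, with log2 changes of 1.76 ± 0.37 (SE, adjusted p = 0.00049, limma) and 1.70 ± 0.37 (adjusted p = 0.00255). A distal peak 25877 bases from the start (chr6:31245965-31246465) was called with TNF, IL-1β, IFNγ, IFNα, OSM and TGF-β1. Its unstimulated libraries held 4.75, 5.49, 0.589 and 4.99 per Mb, so that replicate 3 stood apart. Without that library the TNF change fell from 1.24 to 0.65 (adjusted p = 0.118), the TGF-β1 change from 1.24 to 0.65 (adjusted p = 0.125) and the IL-1β change from 1.14 to 0.55 (adjusted p = 0.274). The IFNγ change fell from 0.90 to 0.31 (adjusted p = 0.792) and the OSM change from 0.80 to 0.21 (adjusted p = 0.687), and both were also lost without any of 3 libraries of their own group (IFNγ replicates 1, 2 and 4, OSM replicates 1, 2 and 3). The IFNα call here was kept with any 1 library left out.

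NLRC5 had peaks with different responses along its introns. At chr16:57014542-57015042, 25235 bases from the start, the unstimulated libraries held 0.50, 0.19, 0.452 and 0.56 per Mb, those with IFNγ 3.19, 2.58, 2.94 and 5.61, and those with TNF 4.24, 3.77, 3.89 and 4.11. IFNα libraries stayed at 0.38 to 0.816 per Mb, so that the IFNγ and TNF libraries stood apart from the unstimulated and IFNα libraries. The log2 changes were 2.11 ± 0.39 (SE, adjusted p = 3.93e-05, limma) and 2.30 ± 0.39 (adjusted p = 1.77e-06), and IFNα was lower than IFNγ by -1.81 (adjusted p = 0.00174). This peak holds 1 ISRE and 1 NF-κB match. Of the 11 class I peaks with an ISRE match, 5 rose with IFNγ, as did 28 of the 141 without one, and of the 15 with an NF-κB match, 3 rose with TNF, as did 4 of the 137 without one. Of the 28 with a GAS match, 6 rose with IFNγ, as did 27 of the 124 without one. The 3 with an NF-κB match that rose with TNF were the HLA-B promoter, this NLRC5 peak and a peak past HLA-E described with TNF below.

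**Figure D3:**
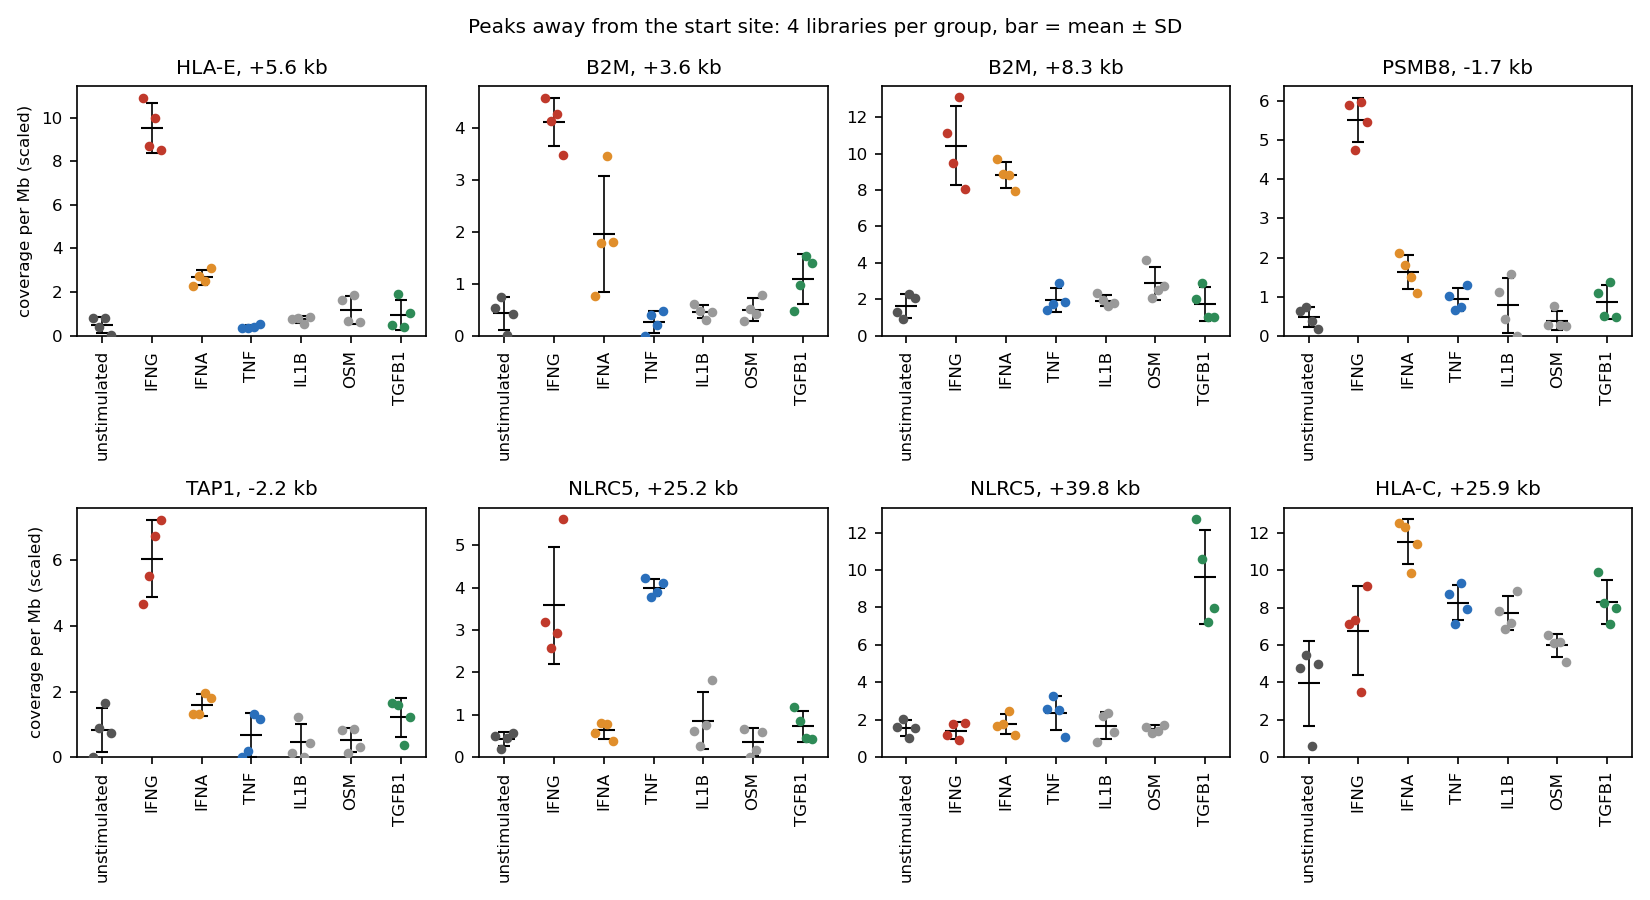
Coverage per Mb (y axis) of 8 class I peaks away from start sites in the 4 libraries of 7 groups (x axis, points), with mean and SD as black bars and the distance of the peak from its gene's start site above each panel. The peak of NLRC5 at +25.2 kb is high with IFNG and TNF, that at +39.8 kb with TGFB1 alone among these groups, and the low unstimulated library of the HLA-C peak stands at 0.589.

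The interferons were compared directly. IFNα and IFNγ differed at 16 of the 152 peaks (10.5%, against 1.17% of all peaks), with 15 lower and 1 higher in IFNα. Of the 15 lower peaks, 5 lay in or just past HLA-E and 4 carried the name TAP1. The exception was an NLRC5 intron peak (chr16:57000534-57001034), with 19.2 per Mb for IFNα and 12.2 for IFNγ (log2 difference 0.64, adjusted p = 0.0047). This count was 9 without IFNα replicate 4 or IFNγ replicate 3, and 10 without IFNγ replicate 1. All 15 peaks raised with IFNα were among the 33 raised with IFNγ, which is 100% of the first list and 45.5% of the second. Both lists share the unstimulated libraries. Over all tested peaks, 0.513% were raised with IFNα and 1.48% with IFNγ, but their overlap was not counted. The nesting is therefore not shown to be particular to class I peaks. It includes the distal HLA-C peak (chr6:31245965-31246465), whose IFNγ call was lost without unstimulated replicate 3.

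TNF called 8 class I peaks, 7 raised and 1 lowered (5.26%, against 4.37% of all peaks), a share near that of all peaks. Besides HLA-B and the NLRC5 peak above, it raised a peak past HLA-E (chr6:30496492-30496992) from 5.49, 3.89, 2.09 and 3.06 per Mb to 10.2, 14.3, 10.5 and 10.8, without overlap (log2 change 1.59 ± 0.25, SE, adjusted p = 1.35e-07, limma). IL-1β raised the same peak to between 5.91 and 12.5 per Mb (log2 change 1.29, adjusted p = 5.42e-05). In all, IL-1β called 3 members, all raised (1.97%, against 3.5% of all peaks), and 5 without IL-6 replicate 4. TNF and IFNγ differed at 34 members (against 6.35% of all peaks), 33 of them lower with TNF, including 6 of the 8 lead peaks.

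TGF-β1 was the cytokine with lowered lead peaks. It called 7 members, 3 raised and 4 lowered (4.61%, against 3.51% of all peaks), and the lead peaks of HLA-F, TAP1 and NLRC5 were among the lowered ones. HLA-F held 6.09, 4.65, 3.68 and 5.53 per Mb, all under the unstimulated libraries (log2 change -0.64 ± 0.19, SE, adjusted p = 0.0289, limma). NLRC5 held 6.12, 10.3, 5.59 and 9.16 per Mb (-0.61 ± 0.17, adjusted p = 0.0148) and TAP1 6.94, 4.05, 3.81 and 3.10 (-0.67 ± 0.21, adjusted p = 0.0481), and both overlapped with the unstimulated groups. All 3 calls were lost without TGF-β1 replicate 3 or unstimulated replicate 2. The HLA-F call was also lost without TGF-β1 replicate 2 or unstimulated replicate 4, the NLRC5 call without TGF-β1 replicate 1, and the TAP1 call without TGF-β1 replicate 2 or 4 or unstimulated replicate 3 or 4. All 3 were lost with loess offsets and with voom weights, and those of HLA-F and TAP1 with only the 2 groups compared. The TAP1 call was also lost with median-of-ratios scaling and a pseudocount of 2. Over their alternatives the highest adjusted p was 0.168 for HLA-F and 0.14 for NLRC5. The peak over the TAP1 start site itself was not called with TGF-β1 (log2 change -0.07, adjusted p = 0.834). The peak over the PSMB8 start site, named PSMB8-AS1, was called lower (-0.66, adjusted p = 0.0253), but not without TGF-β1 replicate 1 or 3 or unstimulated replicate 2 or 4. With TGF-β1, 4.5% of all promoter-class peaks were called, and the median log2 change was -0.04 over promoter-class peaks and 0.15 over all tested peaks. An NLRC5 intron peak (chr16:57029072-57029572) went the other way, from 1.59, 2.05, 1.01 and 1.54 to 12.7, 10.6, 7.21 and 7.99 per Mb (log2 change 2.30 ± 0.32, adjusted p = 3.04e-09), and this call held under every alternative. The TGF-β1 count was 3 without TGF-β1 replicate 3, and 4 without unstimulated replicate 2 or 3. Under loess offsets the split was 2 raised and 1 lowered.

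OSM called 6 members, all raised (3.95%, against 2.85% of all peaks), in a comparison where the median of all tested peaks was -0.22. None was a lead peak. The NLRC5 peak at chr16:57038965-57039465 held 4.69, 6.57, 3.18 and 4.43 per Mb without stimulation and 10.7, 11.6, 13.5 and 9.06 with OSM, with no overlap (log2 change 1.19 ± 0.25, SE, adjusted p = 0.000654, limma). It was the 1 member lowered with TNF (-1.05, adjusted p = 0.0023) and with IFNα (-1.14, adjusted p = 0.00368, and 0.0584 without unstimulated replicate 2). The OSM count was 2 without OSM replicate 1, OSM replicate 3 or unstimulated replicate 3, and 3 without OSM replicate 2 or unstimulated replicate 4. IL-13 called 1 member, an intronic HLA-E peak (chr6:30490845-30491345) that was at or under the floor in all unstimulated libraries (0.658%, against 1.61% of all peaks), where the IL-13 mean was at least 2.08-fold higher. That count became 0 without IL-13 replicate 2 or 4, or unstimulated replicate 1, 3 or 4, and 2 without IL-13 replicate 1. The HLA-E peak was not among those 2 (adjusted p = 0.0727), and it was also not called with a pseudocount of 2 or with only the 2 groups compared. IL-6, IL-17A and IL-22 called 0 members with limma, where 0.107%, 0.0398% and 0.0366% of all peaks were called, and 0 with voom weights too. At an unadjusted limma p under 0.05 there were 8, 7 and 12 of the 152 members. Among all 407176 tested peaks, 35213, 26247 and 29096 were under that unadjusted limit.

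The wider pathway was read from 24 other genes of antigen presentation and its control, each by its lead peak. Among all promoter-class peaks, 1.96% were called with IFNγ, 1.03% with IFNα, 3.01% with TNF and 4.5% with TGF-β1. IFNγ raised 3 and lowered 0 of the 24. These were PSMB10, the remaining catalytic subunit of the immunoproteasome (log2 change 0.73 ± 0.19, SE, adjusted p = 0.0177, limma), the transcription factor IRF1 (0.58 ± 0.11, adjusted p = 8.34e-05), and CIITA, the class II transactivator (2.34 ± 0.39, adjusted p = 2.45e-06). TAP2, the partner of TAP1, changed by 0.09 and was not called. IFNα called 0 of the 24 by limma and by voom weights. TNF raised TAPBP, the tapasin gene (0.69 ± 0.20, adjusted p = 0.024), a call lost without TNF replicate 1, 2 or 3 or unstimulated replicate 1 or 2. A count of 1 among 24 genes is near the promoter-class share for TNF. TGF-β1 lowered TAPBPL (-0.68), CALR (-0.37) and PSME2 (-0.30), with 1 called without unstimulated replicate 2 or 3. The other 6 cytokines called 0, against 0.0859% (IL-17A) to 2.96% (IL-1β) of all promoter-class peaks.

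Among 21602 other promoter-class peaks, those whose 11 group means followed the mean profile of the class I lead peaks most closely were named PSMB8-AS1 (Pearson's r = 0.989), EPSTI1 (0.971), APOBEC3G (0.961), CAPS2 (0.961) and MIR4529 (0.96). Their log2 changes with IFNγ ran from 1.03 to 1.45. These correlations over 11 groups are a description, since the groups share libraries, scaling and 1 unstimulated group.

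Rows that lie within the HLA-B gene itself carry the name of a microRNA gene, MIR6891, and were therefore no members. HLA genes differ between people and resemble one another, so reads from an allele far from the hg38 sequence may be lost or placed at another gene. Of the 110 class I peaks on chromosome 6, 4 held any 75-base stretch that is repeated elsewhere in the region from 28000000 to 34000000, at most 2.58% of a peak's stretches. The part of allele differences in these levels was not tested.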

How the data were processed

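ATAC-seq of Ccd18-Co fibroblasts was analysed in 44 libraries (11 groups of 4). The authors aligned paired-end reads to hg38 with the ENCODE pipeline, called peaks with MACS2, and deposited the signal as read coverage summed over each peak, without scaling. Coverage is not a count, so no count model was used. All rows are 500 bases wide, as are the ArchR peaks of the study's single-cell data, but whether the table uses those peaks is not given in the sources used here. Coverage was divided by the library total and a trimmed-mean composition factor (30% of log ratios and 5% of means trimmed), 0.5 was added, and log2 taken. Peaks with a log2 mean of -3 or below were left out (207). limma 3.58.1 in R 4.3.3 was fitted over all libraries with group as the only term and an eBayes trend, giving 12 contrasts. Adjusted p-values are Benjamini-Hochberg over all tested peaks of a contrast, called under 0.05. Named peaks were each gene's lead peak, each gene's most changed other called peak for IFNγ, IFNα and TNF, and for other contrasts the called peaks, or the 3 most changed where over 5 were called. Other peaks in the text were chosen after their values were seen. The floor is 3 reads of 75 bases per library. Intervals and floors cover counting error or spread between libraries only. The scripts were tested on simulated data. A peak that is not called is not shown to be unchanged. Members and gene lists were chosen with earlier results of these data known. Sequences came from the hg38 reference, and start sites from GENCODE v44. Some items are not reported here.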

Additional observations from a re-analysis of the deposited data

Results flagged for a closer look

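The lead peak levels were screened for a library that stood apart in its group of 4, with 88 groups screened and 4 found, where chance gives about 1 in 20. At the HLA-B promoter IL-6 replicate 4 held 14.9 per Mb, against 13.3 to 13.5 in the other IL-6 libraries, and at TAP1 the same library held 12.5 per Mb, against 6.57 to 7.48. That library is the shallowest, with 148.8 Mb. At B2M, TGF-β1 replicate 2 held 27.6 per Mb, against 30.6 to 31.2 in the other TGF-β1 libraries. At NLRC5, OSM replicate 1 held 9.57 per Mb, against 12.6 to 12.8 in the other OSM libraries. None of these 4 groups had a called change at the peak concerned.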

How the results depend on the processing

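The counts of called class I peaks with IFNγ (26 to 35), TNF (8 to 9) and TNF against IFNγ (30 to 40) stayed within 1.5 times their reported values under every scaling, filter, pseudocount and weighting tried. IL-13 went from 1 to 2 with loess offsets and 0 with a mean of at least 1 per Mb. OSM went from 6 to 10 with GC correction and with only the 2 groups compared. TGF-β1 went from 7 to 3 with loess offsets, 4 with only the 2 groups compared and 4 with voom weights. With 1 library left out, the class I counts ran from 9 to 17 (IFNα against IFNγ), 10 to 17 (IFNα), 28 to 33 (IFNγ), 28 to 37 (TNF against IFNγ), 7 to 8 (TNF), 2 to 5 (IL-1β), 2 to 7 (OSM), 3 to 8 (TGF-β1) and 0 to 2 (IL-13). Counting any peak of the 24 pathway genes in place of the lead peak gave 4 genes for IFNα, 7 for IFNγ, 3 for IL-13, 1 for IL-17A, 7 for IL-1β, 1 for IL-6, 7 for OSM, 8 for TGF-β1 and 8 for TNF. That way of counting takes in more peaks, and why it gave more genes was not tested. By lead peak, a mean of at least 1 per Mb gave 1 for IL-1β and 1 for OSM, GC correction gave 2 for OSM, the 2 groups alone gave 1 for OSM, and loess offsets gave 1 for TGF-β1 and 2 for TNF. With 1 library left out the pathway counts ran from 1 to 4 for TGF-β1 and from 0 to 1 for TNF. Other than for the left-out libraries, the cause of these differences was not tested. No named peak changed direction while called. Low peaks limit what can be seen, since 3 reads come to 0.274 to 1.52 per Mb depending on the library.

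Replicate numbers are shared between groups, but libraries with the same number did not deviate together (correlations between -0.02 and 0.03), so the numbers were not taken as pairs. With the replicate number as a block, 33 class I peaks were called with IFNγ and 16 with IFNα, and none of the 126 named peak results changed its call.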
